A study of Homo sapiens with 3 samples.

Results

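The comparison described here sets the array of cells that received the IL1RN guides, sgIL1RN1~3, against the array of cells that received sgTetO. These are 2 of the 3 arrays of the study, and they were taken by their guide labels alone. All cells were HEK293T, a human embryonic kidney line transformed with adenovirus DNA and carrying the SV40 large T antigen, and all were transfected with dCas9VP160, a Cas9 without nuclease activity fused to a viral activation domain. The IL1RN guides were directed to the promoter of IL1RN, sgTetO to the bacterial TetO element, and the remaining array, sgTetOmut, received a mutated form of sgTetO with no target and is shown beside the pair. The labels name no human target of sgTetO and do not say how many cells took up the plasmids. Each value may thus be that of a mixed well of transfected and untransfected cells. Each guide label has 1 array, with the IL1RN guides together on theirs, so no difference below has a replicate check or a p-value. The number of arrays limits the precision.

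In CRISPR activation, the guide RNA brings the dead Cas9 to a matching DNA site that is flanked by a short protospacer-adjacent motif, and the fused domain recruits the transcription machinery there. Guides placed together upstream of 1 start site usually act better than 1 alone. IL1RN encodes the interleukin-1 receptor antagonist, which occupies the interleukin-1 receptor without starting a signal. The gene is expressed mainly in epithelial and myeloid cells.

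In GRCh38.p14, IL1RN lies on chromosome 2, chr2:113099360-113134014, on the plus strand. The RefSeq promoter windows used here hold 3 of its annotated starts. The 250 bases before the first and before the last of them are shown because they are among the regions where an IL1RN promoter guide could bind. First and last refer to these 3 starts alone, since the gene begins upstream of them, at 113099360, where no window was used. The middle start, at 113127489, lies so close to the last that their windows overlap. The guide sequences are not used here, so no guide is placed on these bases. Capitals mark GG and CC, which are the fixed letters of the NGG motif of Streptococcus pyogenes Cas9 on the plus strand and, read as CCN, on the minus strand, with overlapping matches counted.
IL1RN first start, chr2:113117721-113117970, plus strand: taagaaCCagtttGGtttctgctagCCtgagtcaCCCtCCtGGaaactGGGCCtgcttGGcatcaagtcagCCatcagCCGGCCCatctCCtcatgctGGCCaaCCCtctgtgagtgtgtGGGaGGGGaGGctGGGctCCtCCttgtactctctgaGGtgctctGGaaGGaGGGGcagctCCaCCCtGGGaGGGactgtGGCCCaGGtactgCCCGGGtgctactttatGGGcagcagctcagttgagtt
IL1RN last start, chr2:113127348-113127597, plus strand: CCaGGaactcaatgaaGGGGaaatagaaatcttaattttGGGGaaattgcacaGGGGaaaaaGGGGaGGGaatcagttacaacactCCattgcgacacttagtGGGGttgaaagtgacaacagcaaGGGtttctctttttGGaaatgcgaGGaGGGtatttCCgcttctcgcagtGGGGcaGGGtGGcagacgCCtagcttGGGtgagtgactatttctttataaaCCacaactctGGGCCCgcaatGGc
The first window held 31 GG and 23 CC pairs and was 59.6% G or C. The last held 35 GG and 7 CC pairs and was 48.4% G or C. Of the 35116 promoter windows of the same length, 99.99% held at least 1 such pair, and the median was 48, so motif letters of this kind are near universal. Of those windows, 60.5% held no more pairs than the first IL1RN window and 41.2% no more than the last.

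The guides' own target was the largest difference of the pair. IL1RN is read by 5 probe sets, which are groups of short oligonucleotides that are summarised to 1 log2 value each. Set 212657_s_at read 2.23 on sgTetOmut, 2.28 on sgTetO and 7.01 on sgIL1RN1~3. This is 4.73 log2 units above sgTetO, rank 1 of the 19070 sets with 1 gene symbol. The next highest difference among all sets was 1.56, in FGFBP1. The chip carries 27 sets for Bacillus transcripts, and the highest of them read 3.40 on both arrays of the pair. IL1RN lay under that value on sgTetO, so its fold is at least 12.2-fold over sgTetO.

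The other IL1RN sets did not show a change of that size. Set 212659_s_at read 3.29 on sgTetOmut, 2.88 on sgTetO and 3.80 on sgIL1RN1~3, which is at least 1.32-fold over sgTetO. Sets 216243_s_at, 216244_at and 216245_at lay under the highest Bacillus value on all arrays, with differences of -0.45, -0.37 and -0.16 from sgTetO. The large IL1RN difference therefore rests on 1 set of the 5. Which exons or transcripts each set matches is not used here.

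**Figure D1:**
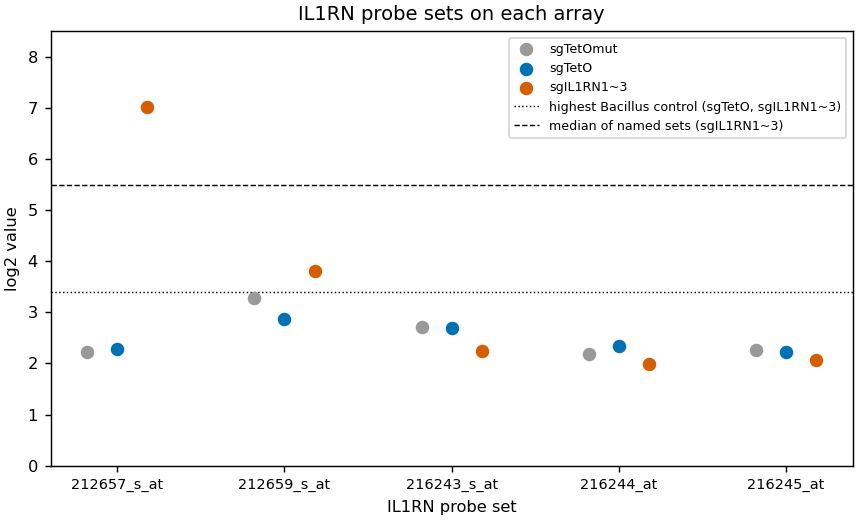
The log2 value of each of the 5 IL1RN probe sets is plotted for the sgTetOmut, sgTetO and sgIL1RN1~3 arrays, 1 point per array, with the highest Bacillus control (3.40) and the median of all named sets on sgIL1RN1~3 (5.50) as lines. Only 212657_s_at on sgIL1RN1~3, at 7.01, lies above the median line, and 212659_s_at on the same array, at 3.80, is the other point above the Bacillus line.

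Apart from IL1RN, the arrays of the pair were close. Differences were read on the 9783 named sets, of 6952 genes, whose higher value reached the median of all named sets on its array, 5.46 on sgTetO and 5.50 on sgIL1RN1~3. Of these sets, 91.6% differed by under 0.5 log2 units, against 98.7% between sgTetO and sgTetOmut. The SD of the differences was 0.28 for the pair and 0.18 between sgTetO and sgTetOmut over the same sets. It fell with brightness, from 0.36 in the dimmest of 5 equal bands of these sets to 0.18 in the brightest, and it was above that of the control arrays in all 5 bands (0.21 in the dimmest and 0.11 in the brightest). The pair was thus wider than the controls at each level of signal.

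At a limit of 2-fold (1 log2 unit), 21 sets were higher on sgIL1RN1~3 than on sgTetO, which is 0.215% of those tested, and 16 were lower, which is 0.164%. Several of these sets reached the tested level only on the array where they were higher. Examples were IL1RN and FGFBP1, at 2.28 and 4.39 on sgTetO, and PDCD6 and HAL, at 4.36 and 4.73 on sgIL1RN1~3. The level limit is thus no check on such differences. Between sgTetO and sgTetOmut, which share the sgTetO array with this pair, 0 sets were higher and 50 were lower (0.00% and 0.516%). The split of the pair depends on the scaling of the arrays: 15 were higher and 21 lower after quantile scaling, and 14 and 21 after cyclic loess scaling, with all 16 of the lower sets still among them. At 1.5-fold, 303 sets were higher (3.10%) and 190 lower (1.94%), against 13 higher (0.134%) and 91 lower (0.939%) for sgTetO minus sgTetOmut. The median difference over the tested sets was 0.03. Against sgTetOmut, with the sgIL1RN1~3 array shared, 7 sets were 2-fold higher on sgIL1RN1~3 (0.0716%) and 57 lower (0.583%), and 157 were 1.5-fold higher (1.60%) and 181 lower (1.85%).

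**Figure D2:**
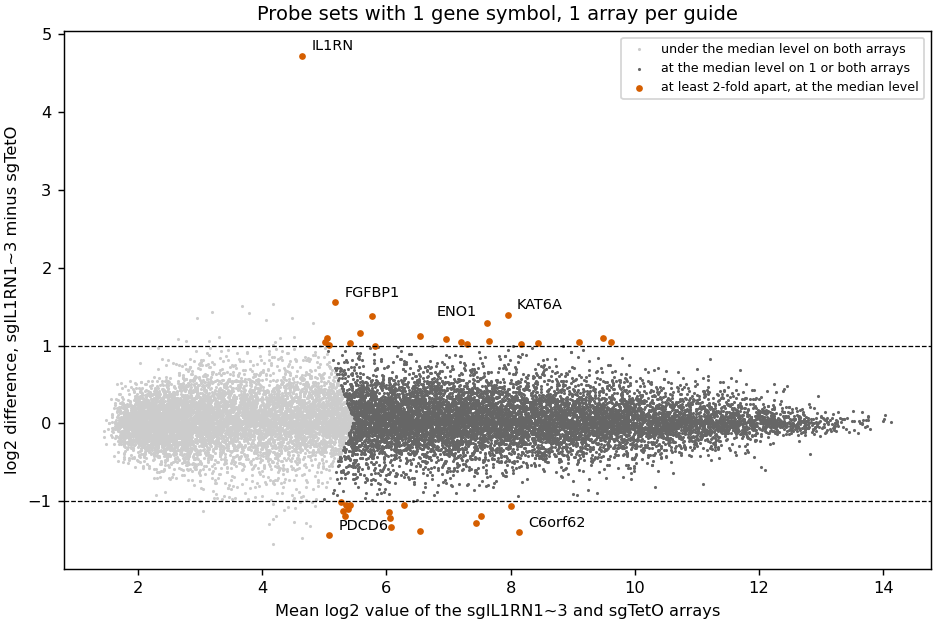
Each point is 1 probe set, plotted by its mean log2 value over the 2 arrays and its log2 difference, sgIL1RN1~3 minus sgTetO, with dashed lines at 2-fold. The 21 higher and 16 lower sets at the median level are coloured, and IL1RN stands at 4.73 while every other coloured set lies between -1.43 and 1.56.

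The 2 arrays also differed in the chip controls for RNA quality. These controls read the same messenger at its 5' end, its middle and its 3' end. The 5' set falls short of the 3' set when RNA is broken or when labelling, which starts at the poly(A) tail, does not reach far. For ACTB, which encodes beta-actin, the 5' set read 7.61 on sgTetOmut, 7.48 on sgTetO and 8.43 on sgIL1RN1~3. The middle set read 10.01, 9.96 and 10.65, and the 3' set 13.34, 13.34 and 13.41. The difference of sgIL1RN1~3 from sgTetO was 0.95 at the 5' end, 0.69 in the middle and 0.06 at the 3' end.

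GAPDH, a glycolytic enzyme, showed the same order, with 0.84 at the 5' end, 0.58 in the middle and -0.01 at the 3' end. The 3' to 5' ratio of ACTB was 58.3 on sgTetO, 53.3 on sgTetOmut and 31.6 on sgIL1RN1~3, and that of GAPDH was 7.63, 6.53 and 4.22. The sgIL1RN1~3 array had the lowest ratio for both messengers.

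Ribosomal RNA controls gave like values in their middle parts, 0.57 higher for 18S and 0.48 higher for 28S, while the 3' set of 18S was 0.09 higher and the 5' set of 28S was -0.10. The 18 sets for spiked hybridization controls lay slightly lower on sgIL1RN1~3 than on sgTetO in all 18 cases, by -0.20 to -0.00. Among the standard sets of the same genes, the 3 for GAPDH were 0.38 to 0.39 higher on sgIL1RN1~3 and the 2 for ACTB 0.05 and 0.08. How far the transcript part read by a set bears on the gene differences below was not tested.

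**Figure D3:**
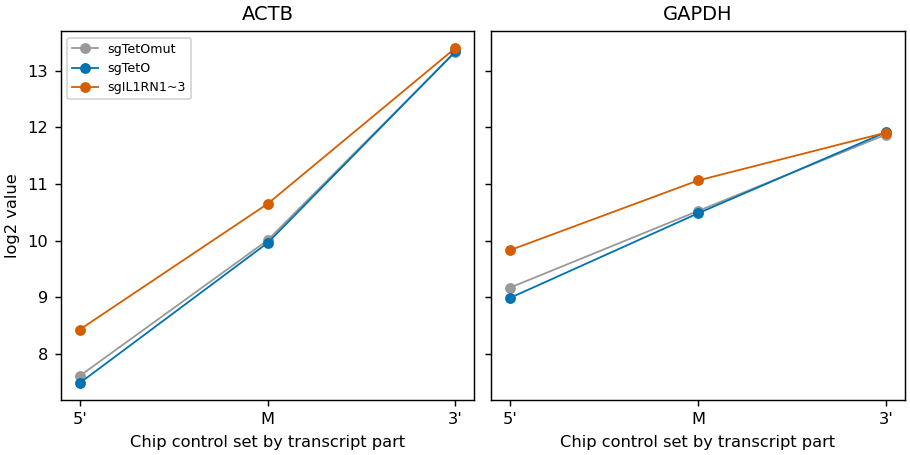
The log2 values of the chip control sets for ACTB and GAPDH are plotted by transcript part from 5' to 3' (M is the middle set), 1 line per array. For ACTB and GAPDH the sgIL1RN1~3 line lies above both others at the 5' end, by 0.95 and 0.84 over sgTetO, and meets them at the 3' end.

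The 20 genes with a set at least 2-fold higher on sgIL1RN1~3 had varied roles. FGFBP1, a carrier of fibroblast growth factors, read 4.43 on sgTetOmut, 4.39 on sgTetO and 5.96 on sgIL1RN1~3. KAT6A, a histone acetyltransferase, read 7.89, 7.26 and 8.65 in the same order, and TP53I3, an oxidoreductase induced by p53, read 5.19, 4.998 and 6.16. For these genes sgIL1RN1~3 was the highest of the 3 arrays, and in KAT6A sgTetO lay 0.63 under sgTetOmut. No other set of these genes was above the Bacillus controls on both arrays, so they have no second reading.

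Metabolism and its control gave ENO1 and TXNIP. ENO1, the glycolytic enolase, is read by 3 sets, and sgIL1RN1~3 was highest on each. The dimmest, 217294_s_at, read 7.05 on sgTetOmut, 6.97 on sgTetO and 8.26 on sgIL1RN1~3, the next read 9.25, 9.08 and 10.14, and the brightest read 10.36, 10.32 and 10.84. The difference from sgTetO was 1.29 in the dimmest set and 0.52 in the brightest. TXNIP, which binds thioredoxin and restrains glucose uptake, read 6.13, 5.07 and 6.46 on set 201008_s_at. Here sgTetO was the array that stood apart, 1.06 under sgTetOmut, and the further TXNIP sets were 0.59 and 0.42 higher on sgIL1RN1~3 than on sgTetO.

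Membrane transport and signalling gave SLC29A1, a nucleoside transporter, higher by 1.10, GNB1, a G protein beta subunit, by 1.06, ATP6AP2, an accessory protein of the vacuolar proton pump, by 1.05, and SYPL1, a vesicle membrane protein, by 1.12. LTBP1, which holds latent TGF-beta in the matrix, was higher by 1.10. Nuclear functions gave RAD21, a cohesin subunit, by 1.09, KPNA6, an importin, by 1.05, SF3A1, a subunit of the U2 splicing particle, by 1.02, and CCNF, cyclin F, by 1.01. The other genes were RNF19B, a ubiquitin ligase, B4GALT5, a galactosyltransferase of glycolipid synthesis, AZIN1, which protects ornithine decarboxylase, PPP2R1A, the scaffold of protein phosphatase 2A, and TAGLN2, an actin-binding protein, by 1.00 to 1.04.

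For many of these sets sgTetO also lay under sgTetOmut, and the difference from sgTetOmut was smaller. It was 0.70 for SLC29A1, 0.60 for GNB1 and 0.47 for ATP6AP2. It was 0.55 for SYPL1, 0.45 for RAD21, 0.50 for KPNA6, 0.50 for AZIN1 and 0.64 for B4GALT5. Among the sets with sgTetO within 0.20 of sgTetOmut were those of LTBP1, at 0.92 over sgTetOmut, PPP2R1A at 0.91, TAGLN2 at 0.86, and CCNF and SF3A1 at 0.82.

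ENO1 was the 1 gene of the 20 with more than 1 tested set past 2-fold. The remaining sets of these genes are, by that count, those under 2-fold or under the tested level, and 21 of them, in 15 genes, were above the Bacillus controls on both arrays. Of these, 4 were past 1.5-fold in the same direction and 17 were under 1.5-fold, with a median of 0.28 and a range of -0.13 to 0.87. The 4 were in RNF19B (0.87), B4GALT5 (0.76), KPNA6 (0.65) and TXNIP (0.59). The second RAD21 set, at 10.46 on sgTetOmut, 10.45 on sgTetO and 10.46 on sgIL1RN1~3, was the same on all arrays within 0.01, and that of LTBP1 differed by 0.01.

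The 16 genes with a set at least 2-fold lower were as varied. PDCD6, a calcium-binding adaptor, read 5.31 on sgTetOmut, 5.79 on sgTetO and 4.36 on sgIL1RN1~3 on set 222380_s_at. C6orf62, a gene of little known function, read 8.95, 8.84 and 7.44 on 222309_at. For both, sgIL1RN1~3 was the lowest array. The difference from sgTetO was -1.43 in PDCD6 and -1.40 in C6orf62. It was -1.28 in SCAF4, which binds the tail of RNA polymerase II, -1.11 in PRKDC, the catalytic subunit of DNA-dependent protein kinase, -1.05 in SUPT3H, a subunit of the SAGA coactivator, and -1.06 in HBS1L, a ribosome rescue factor.

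Transport and the cytoskeleton gave TIMM8A, an import chaperone of mitochondria, at -1.19, KIF13A, a kinesin motor, at -1.14, TTLL5, which adds glutamate to tubulin, at -1.38, and SLC6A16, of the neurotransmitter transporter family, at -1.21. Receptors and their partners gave GPR22, an orphan receptor, at -1.12, PLXNC1, a semaphorin receptor, at -1.05, and GPRASP1, a receptor sorting protein, at -1.005. The difference was -1.19 in HAL, histidine ammonia-lyase, -1.05 in ZNF814, a zinc finger protein, and -1.33 in MICOS10P1, a pseudogene. In HAL the sgTetOmut array, at 5.12, lay nearer to sgIL1RN1~3 (4.73) than to sgTetO (5.92). In several other sets sgTetO lay 0.24 to 0.50 over sgTetOmut, and the difference from sgTetOmut was smaller. It was -0.55 for ZNF814, -0.66 for HBS1L, -0.81 for PLXNC1 and -0.83 for SLC6A16. TIMM8A and KIF13A were at -0.86, SCAF4 at -0.92 and PDCD6 at -0.95. The rest were GPRASP1 at -0.91, SUPT3H at -0.997, PRKDC at -1.03, GPR22 at -1.13, TTLL5 at -1.17, MICOS10P1 at -1.19 and C6orf62 at -1.51.

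The second readings of the lower genes were centred on no difference. For 10 of the 16 genes, 16 further sets were above the Bacillus controls on both arrays, with a median of 0.00 and a range of -0.60 to 0.75. Each of the 16 genes had 1 tested set past 2-fold, so these are the sets not so counted. Of them, 1 was past 1.5-fold in the same direction, in PDCD6 (-0.60), 13 were under 1.5-fold and 2 were past 1.5-fold the other way. Those 2 were in C6orf62, whose set 213875_x_at was 0.75 higher on sgIL1RN1~3, and in PRKDC, whose set 210543_s_at was 0.64 higher. The brightest sets of both genes, 208809_s_at at 12.58 and 208694_at at 12.13 on sgIL1RN1~3, differed by -0.05 and 0.09. The 3 sets of C6orf62 therefore gave, on the same pair of arrays, one difference past 1.5-fold down, one past 1.5-fold up and one under 1.5-fold.

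**Figure D4:**
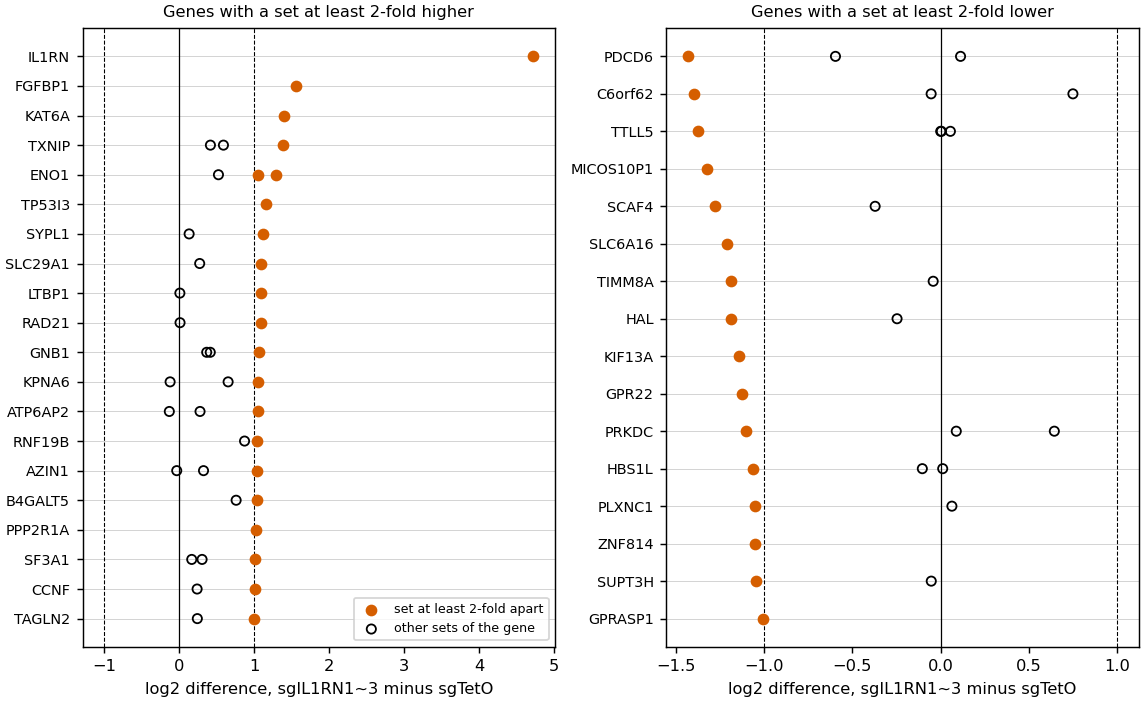
For each gene with a set at least 2-fold higher (left, 20 genes) or lower (right, 16 genes), filled points give the log2 difference, sgIL1RN1~3 minus sgTetO, of those sets and open points that of the gene's other sets above the Bacillus controls on both arrays. Dashed lines mark 2-fold, and in C6orf62 and PRKDC an open point lies past 1.5-fold on the opposite side of 0, at 0.75 and 0.64.

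Read over all genes with several sets, few differences were shared by all of them. On both arrays of the pair, 2985 genes had 2 or more sets above the Bacillus controls, chip control sets left out. At least 1 set was 1.5-fold higher in 265 of these genes and 1.5-fold lower in 141. All sets were 1.5-fold higher in 6 genes (0.201% of the 2985) and 1.5-fold lower in 9 (0.302%). For sgTetO minus sgTetOmut those counts were 1 (0.0335%) and 11 (0.369%). In 4 genes, C6orf62, KMT2A, PDLIM5 and PRKDC, sets of 1 gene were past 1.5-fold in opposite directions. Between the brightest and the second brightest set of a gene, Pearson's r of the differences was 0.33 over the 2985 genes and 0.38 over the 1909 in which the second set was at or above the median level. For sgTetO minus sgTetOmut it was 0.40 over the 2985 genes. The points of this correlation share their 2 arrays, some sets share oligonucleotides or transcripts, and genes are not replicates.

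The 6 genes higher on all their sets above the Bacillus controls were RNF19B, B4GALT5, SFN, VPS26C, MCM7 and DHX30. MCM7, a subunit of the replicative helicase, read 10.28 on sgTetOmut, 10.16 on sgTetO and 10.84 on sgIL1RN1~3 in its brighter set, and 7.87, 7.86 and 8.83 in the dimmer. DHX30, an RNA helicase of mitochondrial ribosome assembly, was higher by 0.62 and 0.60. For both, sgIL1RN1~3 was the highest array on each set. B4GALT5 was higher by 1.04 and 0.76, with sgTetO 0.40 and 0.32 under sgTetOmut, and RNF19B by 1.04 and 0.87, with sgTetO 0.33 and 0.16 under it. SFN, the epithelial protein 14-3-3 sigma, was higher by 0.83 and 0.79, and VPS26C, a subunit of an endosomal retrieval complex, by 0.79 and 0.71, and in both genes sgTetO lay 0.26 to 0.50 under sgTetOmut.

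The 9 genes lower on all their sets above the Bacillus controls included 2 interferon-induced genes, IFI44 and PLSCR1. PLSCR1, a phospholipid scramblase, read 10.31 on sgTetOmut, 9.63 on sgTetO and 8.91 on sgIL1RN1~3 in one set and 10.11, 9.38 and 8.64 in the other, a stepwise order on both. PEX7, a peroxisomal import receptor, differed by -0.68 on each set, CEP290, a ciliary transition zone protein, by -0.78 and -0.72, NAA16, a subunit of an N-terminal acetyltransferase, by -0.69 and -0.95, and FKBP11, a prolyl isomerase of the endoplasmic reticulum, by -0.92 and -0.59, with sgTetO 0.27 and 0.43 over sgTetOmut. The transcript listed as CTC-338M12.4 differed by -0.81 and -0.94 and DHX9-AS1, an antisense transcript whose strand specificity on the array is not used here, by -0.72 and -0.95, with sgTetO 0.42 and 0.57 over sgTetOmut. IFI44, of unknown biochemical role, differed by -0.79 and -0.96. NFIC, a transcription factor, differed by -0.81 and -1.08, but with sgTetOmut at 3.84 and 3.99 and sgIL1RN1~3 at 4.29 and 3.99 it was sgTetO, at 5.10 and 5.08, that stood apart.

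The dimmer sets of a gene carried most of the differences. Among the 2985 genes the brightest set was 1.5-fold higher in 53 and lower in 39, while the dimmest was higher in 173 and lower in 84. The median level was 8.77 for the brightest sets and 5.55 for the dimmest, and the SD of the differences 0.25 and 0.32. In the 1668 genes whose brightest and dimmest sets lay 2 log2 units or more apart, the dimmest set was 1.5-fold higher in 125 and lower in 55, and the brightest in 30 and 14. In those same dimmest sets, sgTetO minus sgTetOmut was past 1.5-fold higher in 7 and lower in 16. Examples of a dim set that differed beside a bright set that did not were HSPA4, a chaperone, with 0.91 at 6.03 and -0.23 at 10.82 on sgIL1RN1~3, and CDH2, N-cadherin, with 0.63 at 5.76 and 0.05 at 12.32.

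Among the set name endings of the array, which reflect how specific the oligonucleotides are, sets ending in _s_at, which can match several transcripts, were more often higher than lower at 1.5-fold (166 against 59 of 4075). Sets ending in plain _at were near balance (109 against 121 of 4735). At 2-fold the higher sets were 13 with _s_at and 8 with _at, and the lower sets 2 with _s_at and 13 with _at.

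The differences were also set beside the promoter GC and the length of the genes. Of 10 equal bands of sets by GC of the promoter window, the lowest had 28 sets 1.5-fold higher and 30 lower, and the highest 33 and 17. Promoter windows were found for 84.7% of the tested sets. Genes of the 1.5-fold lower sets had a median length of 51152 bases in the genome, against 30904 for the higher sets and 35591 for all tested. Spearman's rho with the difference was 0.07 for promoter GC and -0.06 for gene length, over sets that share the 2 arrays. With sgTetO minus sgTetOmut, which shares the sgTetO array, it was 0.02 and 0.05. For gene length the 2 values are near in size and opposite in sign.

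Gene groups were read on the same tested sets, beside 54.6% of all tested sets higher than on sgTetO by any amount and a median of 0.03. Glycolysis and hypoxia gave the highest median of the lists with 9 or more sets, 0.27, with 40 of 47 sets higher, 5 of them past 1.5-fold and 0 lower past it, against 3.10% and 1.94% of all sets. The 5 were in ENO1, PGK1 and PKM. PGK1, phosphoglycerate kinase, was higher by 0.63, 0.61, 0.52 and 0.10 in its 4 sets, the last of which was the brightest, at 11.87 on sgIL1RN1~3. PKM, pyruvate kinase, differed by 0.70 in its brighter set and -0.19 in the other. Split out after the values were seen, the glycolytic enzymes, hexokinases and lactate dehydrogenases included, had 27 of 30 sets higher and a median of 0.32. GAPDH belongs to this group, and its chip controls differed by 0.84 to -0.01 along the messenger.

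Actin and tubulin cytoskeleton genes followed, with 50 of 64 sets higher and a median of 0.22. Past 1.5-fold, 7 sets were higher (10.9%, beside 3.10% of all tested sets) and 0 lower (beside 1.94%). TPM1, a tropomyosin, was higher by 0.92, 0.61, 0.13 and 0.01 in its 4 sets, the last of which was the brightest. RHOC, a small GTPase of actin control, was higher by 0.80, and TPM4 by 0.72 and 0.14. ACTB is on this list, with 0.05 and 0.08 in its standard sets. The medians of both lists stayed positive under quantile scaling (0.24 and 0.17) and cyclic loess scaling (0.21 and 0.19). With sgTetOmut in place of sgTetO they were smaller, at 0.16 and 0.14.

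Lists of membrane traffic and of protein turnover leaned higher too, beside 54.6% of all tested sets higher. The chaperone list did so less, at 59.1%. Each list had 3 to 5 sets past 1.5-fold higher, 5.88% to 10.4% of its sets, beside 3.10% of all tested sets. Vesicle coats and adaptors had 33 of 49 sets higher and 4 past 1.5-fold, with AP2A2, a subunit of the endocytic AP-2 adaptor, at 0.88 and 0.79. The vacuolar proton pump and lysosome list had 36 of 48 sets higher and 5 past 1.5-fold, among them ATP6V0D1 and PSAP at 1.00 each. Proteasome and VCP genes had 36 of 51 sets higher and 3 past 1.5-fold, among them VCP, an unfolding ATPase, at 0.79 on one set and 0.02 on the other. Heat shock and cytosolic chaperones had 26 of 44 sets higher and 4 past 1.5-fold, among them HSP90AB1 at 0.84 on its dimmer set and 0.23 on its brighter. Each of these lists held 0 sets 1.5-fold lower, and their medians were 0.16, 0.11, 0.15 and 0.07. With sgTetOmut in place of sgTetO the medians were smaller, at 0.14, 0.06, 0.03 and 0.02. The median of sgTetO minus sgTetOmut was 0 for the coats, -0.08 for the pump and lysosome, -0.07 for the proteasome and -0.06 for the chaperones. Coat genes were not uniform, since SEC31A read -0.48.

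Stress and growth lists held 1 to 3 sets each past 1.5-fold higher. These were 1.67% (mitosis) to 11.1% (p53 targets) of their sets, beside 3.10% of all tested sets. Counts this small are not read as results about the lists. Of the 40 sets for unfolded protein and amino acid stress 2 were past 1.5-fold higher, DDIT4 and ATF3 at 0.67, and immediate early genes had 2 of 21, JUN at 0.61 and ATF3. The p53 targets had 2 of 18, TP53I3 at 1.16 and BAX, an apoptosis effector, at 0.73 beside 0.48 in its brighter set. DNA replication had 3 of 57, both sets of MCM7 and POLD2 at 0.66, and mitosis 1 higher and 1 lower of 60, KIF2C at 0.60 beside 0.02 in its brighter set, and SMC4 at -0.62 beside 0.03 and -0.00 in its brighter sets. Cholesterol synthesis had 1 of 25, SC5D at 0.90 beside -0.08 in its brighter set, cytosolic tRNA synthetases 1 of 24, FARSA at 0.73 beside -0.06 in its brighter set, and histones 1 of 13, H2BC21 at 0.83. Their medians lay between -0.03 for mitosis and 0.17 for immediate early genes.

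Lists of other constitutive functions had medians from -0.00 to 0.12, beside 0.03 for all sets. Cytosolic ribosomal proteins had a median of 0.04 over 66 sets, with RPS9 at 0.66 and 0.15 and one RPL22 set at 0.70 beside 4 others between -0.15 and 0.19. Oxidative phosphorylation had -0.00 over 58 sets, with UQCRC1 at 0.69 and NDUFV1 at 0.63. Nuclear transport had 0.06 over 88 sets, with 5 higher and 1 lower past 1.5-fold (5.68% and 1.14%, beside 3.10% and 1.94% of all tested sets). Coactivators and acetyltransferases had 0.05 over 59, and solute carriers 0.04 over 138. Phosphatase 2A and 1 subunits had 0.09 over 42 sets, 30 of them higher by any amount. Among these genes PPP1R2, a phosphatase 1 inhibitor, was at -0.77 in one set and 0.06 in its brightest. ABC transporters had 0.12 over 23, from ABCA5 at -0.88 to ABCF2 at 0.76, and kinesins 0.01 over 27, a sign that turned under quantile (-0.03) and cyclic loess (-0.02) scaling.

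Zinc finger genes leaned lower. Of 158 sets from ZNF-named genes, many of them repressors of the KRAB family, 45 were higher, 13 were 1.5-fold lower and 1 was 1.5-fold higher, with a median of -0.09. The 13 are 8.23% of the list, beside 1.94% of all tested sets, and the 1 is 0.633%, beside 3.10%. The difference was -1.05 in ZNF814, -0.91 in ZNF254 and -0.76 in ZNF79. ZNF254 read 4.96 on sgTetOmut, 5.66 on sgTetO and 4.75 on sgIL1RN1~3, and ZNF79 read 6.01, 6.52 and 5.75, so in both the sgTetO array was high against the other arrays. The list as a whole did not share this. Its median of sgTetO minus sgTetOmut was -0.02, and its median difference of sgIL1RN1~3 from sgTetOmut was -0.14. Close sequence among zinc finger genes leaves their sets open to shared hybridization.

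Centrosomal genes with CEP names had 8 of 29 sets higher and a median of -0.14, with CEP290 at -0.78. The DNA damage response had 22 of 54 sets higher, a median of -0.07 and 3 sets 1.5-fold lower (5.56%, beside 1.94% of all tested sets). The 3 were in PRKDC, ATAD5, a clamp unloader (-0.79), and MRE11, a nuclease (-0.68). Splicing factors and hnRNP proteins had 42 of 113 sets higher and a median of -0.05. Past 1.5-fold, 3 were higher (2.65%) and 2 lower (1.77%), near the 3.10% and 1.94% of all tested sets. The sets ran from HNRNPA1 at -0.90, beside -0.42 and -0.20 in its other sets, to SF3A1 at 1.02. Of 62 cytochrome P450 sets 9 reached the tested level. Of the 9, 1 was higher and 4 were 1.5-fold lower (44.4%, beside 1.94% of all tested sets), with CYP3A5 at -0.90, CYP27B1 at -0.88 and CYP20A1 at -0.67. Counts this small are not read as a result about the list. These medians and that of the zinc fingers stayed negative under both scalings.

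**Figure D5:**
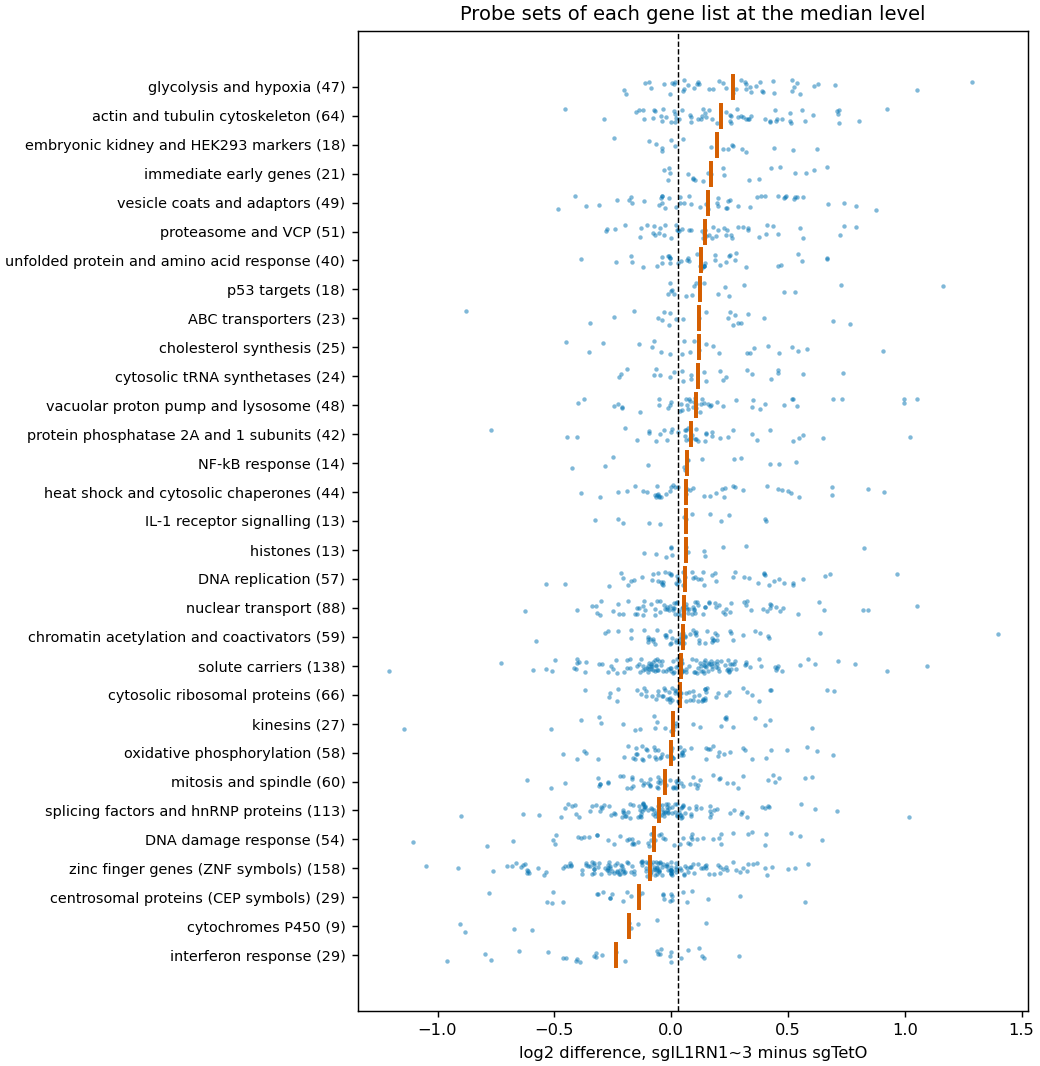
Each blue point is the log2 difference, sgIL1RN1~3 minus sgTetO, of 1 probe set at the median level, for the gene lists with 9 or more such sets (number in brackets), with the list's median in orange and the median of all tested sets (0.03) as a dashed line. Medians run from -0.24 for the interferon response to 0.27 for glycolysis and hypoxia, and the points of every list overlap the dashed line. IL1RN is on none of the lists drawn.

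Interferon genes lay lower on sgIL1RN1~3 than on sgTetO, by less than the control arrays differed from each other. Of 29 tested sets, 6 were higher on sgIL1RN1~3 than on sgTetO, 4 were 1.5-fold lower and 0 were 2-fold lower. The 4 are 13.8% of the list, against 1.94% of all tested sets, and the median of -0.24 was the lowest of the lists with 9 or more sets. The 4 were 2 sets of IFI44 (-0.96 and -0.79), IFIH1 (-0.77), a sensor of double-stranded RNA, and HERC6 (-0.65), a ubiquitin ligase. IFIH1 read 9.39 on sgTetOmut, 7.35 on sgTetO and 6.58 on sgIL1RN1~3. The median difference of these sets between sgTetO and sgTetOmut was -1.66. The members ISG15 and IFITM3 differed by -0.04 and -0.06 within the pair.

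In the neighbourhood of IL1RN and in its pathway no further tested set passed 1.5-fold. Of the 11 genes measured on the interleukin-1 cluster list, 3 had a tested set, IL1RN, POLR1B, a subunit of RNA polymerase I, at 0.12, and SLC20A1, a phosphate transporter, at -0.26. Interleukin-1 receptor signalling had 13 tested sets between -0.33 for CHUK and 0.40 for one IKBKG set, and the NF-kB response 14 between -0.42 for CXCL2 and 0.53 for IER3.

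Markers of the labelled cell line were present on both arrays. All 14 measured genes of the embryonic kidney and HEK293 list were above the Bacillus controls on each array, and 12 reached the median level, among them the neurofilament NEFM at 7.95 and 7.91 on sgTetO and sgIL1RN1~3 and VIM, vimentin, at 9.87 and 10.39. Of its 18 tested sets 1 was past 1.5-fold, the dimmer CDH2 set. Of 15 blood and endothelial markers 4 were above the Bacillus controls on each array of the pair and 1 reached the median level, ITGAM at 0.10. Fibroblast and muscle markers had 10 and 11 of 16 genes above background, 5 with tested sets, between -0.25 and 0.16. Epithelia and liver markers had 7 and 8 of 16, with SFN the 1 gene past 1.5-fold, and neuron and adrenal markers 8 and 7 of 16, with tested sets from 0.10 to 0.28. NANOG, a pluripotency factor with several pseudogene copies, was -0.99 away from sgTetO, at 6.03, 6.26 and 5.27 on sgTetOmut, sgTetO and sgIL1RN1~3. It was the furthest of the 4 tested sets of the pluripotency list, whose median was -0.03. On that list PODXL differed by 0.27 and DNMT3B by -0.05.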

How the data were processed

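Total RNA of HEK293T cells was measured on 3 single-channel arrays, 1 for each guide label, and the label sgIL1RN1~3 covers several IL1RN guides. The deposited values are log2 expression values of 22277 Affymetrix probe sets, and the log2 unit was read from their range, 1.36 to 14.5. Per the submitters' processing notes, the tool was affy. Its version, and how background, scaling and probe summary were handled, were not given in the sources used here. Once each array was sorted, no value was more than 0.104 from the mean of the arrays at its rank. Any shift shared by all genes could thus not be seen. Of the sets, 6.41% read exactly the same on both arrays of the pair. The label gives no hybridization batch.

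Gene names came from GEO's platform annotation: 19070 sets had 1 symbol, 1043 several and 2164 none listed. Of the 19070, 19058 matched the GRCh38.p14 RefSeq gene table. The 6 chip control sets with a symbol stayed in the counts over all sets and out of the lists and the agreement of sets. Differences are plain subtractions with no test, and no detection calls were used. The Bacillus controls served as a background scale.

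Named genes were IL1RN, the 15 sets furthest up and 15 furthest down (the remaining 2-fold sets were added), genes with all sets past 1.5-fold, up to 3 members of each list, and the ACTB, GAPDH, ribosomal RNA and spike control sets; a further chip control is not reported here. Members, lists and limits were chosen with earlier results of these data known. Other genes named inside a list, and KMT2A, PDLIM5, HSPA4 and CDH2, were chosen after their values were seen. Quantile and cyclic loess scaling used limma 3.58.1 in R 4.3.3, and other steps Python 3.11.15 with pandas 2.3.3 and numpy 2.4.6. Simulated data were used to test the counting. Protein sequences and guide sequences are not used here.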

Additional observations from a re-analysis of the deposited data

Results flagged for a closer look

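Among the 3151 sets with several symbols or none listed, outside the chip controls, 1199 reached the median level and 4 were at least 2-fold higher on sgIL1RN1~3 than on sgTetO. Set 213710_s_at was 1.38 log2 units higher, at 7.88 on sgIL1RN1~3, 6.49 on sgTetO and 6.82 on sgTetOmut. Set 210338_s_at was 1.26 higher, at 10.56, 9.29 and 9.62, set 215113_s_at was 1.22 higher, at 5.70, 4.49 and 4.57, and set 211300_s_at was 1.05 higher, at 6.49, 5.45 and 5.52. These sets drew attention because they lie outside the named genes and above both control arrays. A further 7 of the 1199 were at least 2-fold lower, by -1.24 to -1.46. Among the named tested sets, 0.215% were 2-fold higher and 0.164% lower. The furthest of the 7, 220467_at, read 4.08 on sgIL1RN1~3, 5.54 on sgTetO and 5.15 on sgTetOmut. In all of the 7 but 215006_at (-0.13), sgTetO lay over sgTetOmut, by 0.19 (222371_at) to 0.67 (216022_at).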

How the results depend on the processing

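No paired analysis was possible because each guide label has 1 array and the labels give no replicate numbers. For the same reason no array could be left out. The count of sets at least 2-fold higher, 21, and lower, 16, was 8 and 5 with 16 added to the linear values, 35 and 32 with the minimum level at the highest Bacillus control, 37 and 32 with no minimum level, and 8 and 4 with it at the upper quartile. It was 303 and 190 at 1.5-fold and 1 and 0 at 3-fold, IL1RN being the 1. With 1 set per gene, the one highest on sgTetOmut, which lies outside the pair, it was 7 and 8, and IL1RN was not among them. With the mean of all sets of a gene it was 3 (FGFBP1, TP53I3 and PPP2R1A) and 5. With sgTetOmut in place of sgTetO, an array with high interferon genes, it was 7 and 57. The IL1RN difference of 4.73 was 2.80 with 16 added, 0.93 by the set highest on sgTetOmut and 0.94 by the mean of its 5 sets, and 4.70 and 4.69 under quantile and cyclic loess scaling. The ACTB and GAPDH 5' differences stayed between 0.66 and 0.95 in the alternatives run. Of 37 list medians, 1, that of kinesins, turned sign between the scalings. Against sgTetOmut, 2 turned negative, those of the NF-kB response (-0.07) and ribosomal proteins (-0.00), and 3 became 0.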

Other observations

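Under the median level, where differences are less certain, the lowest difference of all named sets was in LGALS8, a galectin, whose set 210732_s_at read 3.98 on sgTetOmut, 4.94 on sgTetO and 3.39 on sgIL1RN1~3. The difference from sgTetO was -1.55, while its 3 other sets above the Bacillus controls differed by -0.09, 0.05 and 0.08. SZRD1, a gene of little known function, had 3 of 4 sets past 1.5-fold higher on sgIL1RN1~3, at 1.54, 0.77 and 0.65, and the remaining set at 0.51. Its set with the highest difference read 3.80 on sgTetOmut, 3.41 on sgTetO and 4.95 on sgIL1RN1~3.

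Of the 2985 genes with 2 or more sets above the Bacillus controls, 26 had at least 2 sets past 1.5-fold higher and 18 at least 2 lower, whatever their other sets read. At least 1 set was past 1.5-fold higher in 265 of the 2985 and lower in 141. Genes with more sets have more chances to be counted. APLP2, a membrane protein related to the amyloid precursor, had 4 of 7 such sets, with differences from 0.18 in its brightest set to 0.88 in its dimmest. Others with several higher sets were EZR, which links actin to the membrane, with 2 of 5, HADHA, of mitochondrial fatty acid oxidation, with 2 of 3, and SMARCA4, a chromatin remodeller, with 2 of 7 and a range of -0.11 to 0.69. Among the lower ones were PTPN2, a phosphatase, with 2 of 3, SENP6, a SUMO protease, with 2 of 3, and SFPQ, a splicing protein, with 2 of 4 and a range of -0.67 to 0.03. These genes were chosen after their values were seen.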
